A study of Mus musculus with 13 samples.

Results

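The glutamate and GABA receptor genes comprised 35 mouse genes that encode subunits of the receptors for the main excitatory and the main inhibitory transmitter of the brain. They were chosen by name and not by a measured value, though with earlier results of these data known. All 35 were found in the GENCODE M21 annotation of mm10, which holds 21951 protein-coding genes among 55450 genes. The set held 4 AMPA, 7 NMDA and 5 kainate receptor subunits, the delta receptor Grid1, 7 metabotropic glutamate receptors, 9 GABA-A subunits and both GABA-B subunits. Other GABA-A and glutamate receptor genes were not part of the set.

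Open chromatin was measured by ATAC-seq, in which the Tn5 transposase cuts accessible DNA, in 13 libraries of cultured oligodendrocyte progenitor cells (OPCs). The cultures came from AMGFAP-Cre;K27M litters at P5 to P7, in which Cre recombination switches on the H3.3 K27M histone from its knock-in at the native H3-3a gene, and from their littermate controls. The driver, named hGFAP-Cre in the study's methods, carries a human GFAP promoter that is active in neural stem and progenitor cells, so recombination is not limited to OPCs, and its extent in these libraries was not analysed here. The full allele composition of the control animals was not given in the labels. Tissue of several pups was pooled by region and genotype, OPCs were captured on anti-PDGFRα plates after endothelial cells and microglia had been depleted, and the cells were expanded in a proliferation medium with PDGF, neurotrophin-3, CNTF and forskolin. The groups were control brainstem (n = 3, cultures 51, 59 and 61), K27M brainstem (n = 3, cultures 41, 59 and 61), control telencephalon (n = 3, cultures 51, 59 and 61) and K27M telencephalon (n = 4, cultures 41, 51, 59 and 61), where telencephalon means the dorsal part with cortex, corpus callosum and hippocampus. The comparisons asked whether accessibility at the receptor genes differed between OPCs of these regions and between K27M and control OPCs.

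AMPA, NMDA and kainate receptors are tetrameric cation channels opened by glutamate, and delta receptors belong to the same channel superfamily. Metabotropic glutamate receptors and GABA-B receptors signal through G proteins, and GABA-A receptors are pentameric chloride channels. OPCs receive synaptic input from neurons and carry AMPA and GABA-A receptors, which makes these genes of interest in the lineage.

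The deposited lists held between 16879 and 52466 peaks per library, and no read counts, so sequencing depth was unknown. A promoter was the window of 2 kb before and 1 kb after any annotated transcription start, and it was called when a peak of that library overlapped it. A gene without a call was therefore not called at that library's depth, which does not mean closed chromatin. The fold of a peak is its enrichment relative to the surrounding background in the same library, and its percentile is the rank of that fold among all peaks of the same list, where 100% is the strongest. The labelled cell type was checked by promoter calls: 5 of 6 OPC markers were called in every library and the other, Cspg4, in 3 of 13, whereas 0 of 4 microglial, 0 of 3 endothelial and 0 of 4 mature oligodendrocyte markers were called in every library, with 3 of the microglial ones in no library. Promoters of 3 of 5 neuronal and 2 of 4 astrocyte markers were called in all 13 libraries too, and the part of other cells in the receptor calls was not tested. The median of the mean percentiles was 29.4% for the OPC markers and 30.6% for the neuronal ones. A high or low percentile therefore does not by itself tell whether a gene is active in OPCs.

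The promoter sequences at the extremes of the set are shown first. RefSeq promoter windows (GRCm38.p6, 250 bases before to 50 after a start) matched 25 of the 35 genes. The other 10, without an entry, were Gria1, Gria3, Grin2a, Grin2b, Grin3a, Grik1, Grid1, Grm4, Grm5 and Gabrd.

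Gabrg1, Gria4 and Gabrb1 were the genes with a sequence whose promoter peaks ranked highest among those called in all 13 libraries. The windows shown for Gabrg1 and Gria4 had a peak over them in 13 libraries. That of Gabrb1 had one in 12, since Gabrb1 also has a peak at an alternative start that is not shown. The 250 upstream bases are given 5′ to 3′ in lower case with each CpG dinucleotide in capitals, at chr5:70842618-70842867 (minus strand), chr9:4796235-4796484 (minus strand) and chr5:71657671-71657920 (plus strand).
Gabrg1: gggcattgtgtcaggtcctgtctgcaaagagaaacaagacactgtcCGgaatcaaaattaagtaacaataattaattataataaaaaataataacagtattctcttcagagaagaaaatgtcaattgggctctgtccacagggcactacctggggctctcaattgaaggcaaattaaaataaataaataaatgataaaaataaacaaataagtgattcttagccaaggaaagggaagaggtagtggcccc
Gria4: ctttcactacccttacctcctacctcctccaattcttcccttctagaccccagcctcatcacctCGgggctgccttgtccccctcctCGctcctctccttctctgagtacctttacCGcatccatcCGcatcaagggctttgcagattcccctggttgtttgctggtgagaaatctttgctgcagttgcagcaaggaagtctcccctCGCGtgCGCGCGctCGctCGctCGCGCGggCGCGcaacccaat
Gabrb1: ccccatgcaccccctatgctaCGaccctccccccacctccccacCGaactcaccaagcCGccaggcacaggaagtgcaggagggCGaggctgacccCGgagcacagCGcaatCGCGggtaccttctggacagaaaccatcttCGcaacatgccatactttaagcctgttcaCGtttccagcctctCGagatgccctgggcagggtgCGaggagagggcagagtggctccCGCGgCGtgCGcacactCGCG

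Grin2c, Grm6 and Grin2d had the fewest promoter calls and were picked for display after their values were seen. Their upstream bases lie at chr11:115267244-115267493 (minus strand), chr11:50850435-50850684 (plus strand) and chr7:45866682-45866931 (minus strand). These windows had a peak over them in 0, 1 and 0 libraries, so the calls of Grin2c and Grin2d lay outside the windows shown. The window of Grin2d lies inside the annotated gene, which begins at chr7:45878378 on that strand.
Grin2c: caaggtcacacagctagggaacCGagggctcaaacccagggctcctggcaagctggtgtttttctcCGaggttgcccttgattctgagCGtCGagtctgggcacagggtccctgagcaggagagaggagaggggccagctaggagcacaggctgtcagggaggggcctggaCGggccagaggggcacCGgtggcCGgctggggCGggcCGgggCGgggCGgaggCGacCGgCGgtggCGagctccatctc
Grm6: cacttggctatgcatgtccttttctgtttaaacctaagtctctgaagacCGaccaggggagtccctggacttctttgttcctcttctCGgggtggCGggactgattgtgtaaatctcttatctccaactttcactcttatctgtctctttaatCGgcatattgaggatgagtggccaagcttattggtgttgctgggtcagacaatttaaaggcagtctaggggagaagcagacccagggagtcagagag
Grin2d: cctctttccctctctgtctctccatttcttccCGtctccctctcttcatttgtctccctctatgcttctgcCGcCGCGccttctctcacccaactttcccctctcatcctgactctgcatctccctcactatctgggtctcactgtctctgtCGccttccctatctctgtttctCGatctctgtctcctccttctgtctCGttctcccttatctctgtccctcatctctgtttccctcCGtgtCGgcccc

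The most strongly called promoter of the set held the fewest CpGs of these 6 sequences. The printed bases contain 1 CpG in Gabrg1, 16 in Gria4, 18 in Gabrb1, 15 in Grin2c, 4 in Grm6 and 9 in Grin2d. Over the 300-base windows the ratio of observed to expected CpGs was 0.276 for Gabrg1, 0.662 for Gria4 and 0.805 for Gabrb1. The corresponding ratios were 0.629 for Grin2c, 0.218 for Grm6 and 0.848 for Grin2d, so the values of the windows shown for strongly and for rarely called genes overlapped.

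Promoter peaks were called in every library for 14 of the 35 receptor genes (40.0%), in 1 to 12 libraries for 21 and in no library for 0. Among the 21951 protein-coding genes, 42.0% were called in every library, 27.4% in 1 to 12 and 30.6% in none. The share called throughout was thus near that of all coding genes. The genes called in all 13 libraries were Gria2, Gria3, Gria4, Grin3a, Grik1, Grik2, Grik4, Grid1, Grm3, Grm8, Gabra2, Gabrb1, Gabrg1 and Gabbr1. The median over the members of the mean percentile was 45.2%, against 60.8% for all coding genes with a call, and the median fold was 2.90 against 3.20. In single libraries between 17 and 34 of the 35 promoters were called. The library of control telencephalon culture 59, with the shortest list, had 17, and that of K27M brainstem culture 41, with 48487 peaks, had 34.

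**Figure D1:**
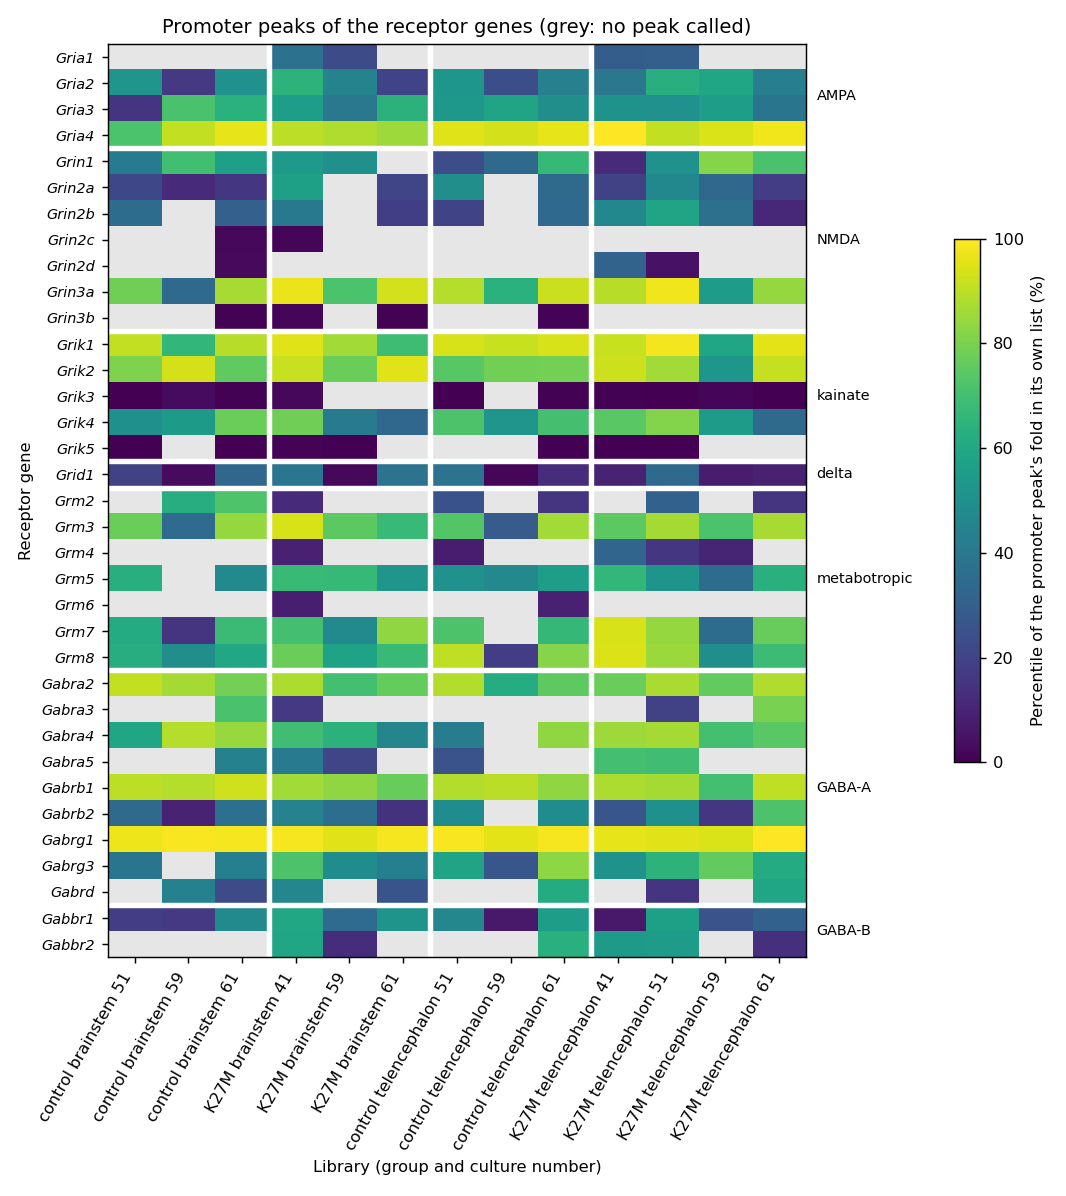
Percentile of the promoter peak of each receptor gene (rows, by subfamily) in each library (columns, by group and culture), from 0% (dark) to 100% (yellow), with grey where no peak was called. Gabrg1 and Gria4 form bright rows in all groups, whereas Grin2c and Grm6 are coloured in 2 of 13 libraries each.

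AMPA receptor genes had calls in all libraries for 3 of 4 subunits. Gria4, a subunit that is prominent in the developing brain, had the highest percentile of the subfamily, 91.6% ± 7.26 (SD, n = 13). Its fold was 4.34, 3.96 and 3.59 in K27M brainstem cultures 41, 59 and 61 and 3.37, 3.94 and 4.95 in control brainstem cultures 51, 59 and 61. In telencephalon it was 5.10, 4.42, 4.17 and 4.55 in K27M cultures 41, 51, 59 and 61 and 3.92, 3.65 and 4.89 in control cultures 51, 59 and 61. The highest value was thus in a K27M telencephalon library and the lowest in a control brainstem library, and all 4 groups overlapped. Gria2, whose edited subunit makes AMPA channels nearly impermeable to calcium, ranged from a fold of 2.54 to 3.23 with a median of 2.91. Gria3 ranged from 2.59 to 3.40 with a median of 2.93. Gria1, the subunit tied to activity-dependent insertion at synapses, was called in 4 libraries. Its folds were 2.60 and 2.73 in K27M brainstem cultures 41 and 59, and 2.60 and 2.54 in K27M telencephalon cultures 41 and 51. These calls came from 3 different merged peaks, of which 1 was called in 2 libraries (K27M brainstem and K27M telencephalon culture 41) and the other 2 in 1 library each. All 4 libraries with a call were thus K27M, a split that 3.7% of the 270 coding genes called in exactly 4 libraries had. With the detection test widened to the 4389 genes called in 3 to 10 libraries, Gria1 had a genotype p of 0.0699 by Fisher's exact test and an adjusted p of 1. Gria1 had a call in 0 of 13 lists when these were reduced to equal numbers of peaks.

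NMDA receptor genes had the least complete calls of the larger subfamilies, with 1 of 7 called in all libraries. That gene was Grin3a, which encodes a subunit that lowers calcium permeability. Its fold was 5.01, 3.45 and 3.94 in the K27M brainstem cultures 41, 59 and 61 and 3.54, 2.83 and 4.25 in the control brainstem cultures 51, 59 and 61. In the telencephalon it was 3.75, 5.23, 3.05 and 3.58 in K27M cultures 41, 51, 59 and 61 and 3.56, 2.99 and 4.45 in control cultures 51, 59 and 61. The groups overlapped. Grin1, the obligatory subunit of NMDA receptors, was called in 12 libraries with folds of 2.44 to 3.60 and was missing from K27M brainstem culture 61. Grin2a, a glutamate-binding subunit that rises with maturation, was called in 11, with folds of 2.44 to 3.00. The missing libraries were K27M brainstem and control telencephalon culture 59. Grin2b, the GluN2 subunit that predominates early in development, was called in 10, with folds of 2.36 to 3.09, and was missing from these same libraries and from control brainstem culture 59. The remaining NMDA genes had few and weak calls. Grin3b was called in 4 libraries at folds of 2.06 and 2.03 in K27M brainstem cultures 41 and 61, 2.03 in control brainstem culture 61 and 2.09 in control telencephalon culture 61. Grin2c, the subunit best known from cerebellar granule cells, was called at 2.06 in K27M brainstem culture 41 and 2.22 in control brainstem culture 61. Grin2d was called at 2.25 in control brainstem culture 61 and at 2.62 and 2.22 in K27M telencephalon cultures 41 and 51. A merged peak near a Grin2d start, in 12 libraries, also overlapped the promoter of its neighbour Kdelr1, and 0 libraries had a call within 500 bp of a Grin2d start.

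The promoters of the kainate receptor genes ranged from strong to very weak. Grik1, Grik2 and Grik4 were called in all 13 libraries with mean percentiles of 86.2%, 82.2% and 59.7%. The value of Grik4 was near the median of 60.8% over all coding genes with a call. Grik1, which encodes GluK1, had folds of 3.11 to 5.30 with a median of 3.88, and Grik2, which encodes GluK2, ranged from 3.03 to 4.43 with a median of 3.80. Grik4, a high-affinity subunit that needs a low-affinity partner, ranged from 2.60 to 3.88 with a median of 3.06. Grik2 had separate peaks in all 13 libraries at its first start (fold 3.08 ± 0.227) and at an alternative start 5.74 kb into the gene (3.74 ± 0.420), so its value mostly describes the internal start. In contrast Grik3, the low-affinity subunit GluK3, was called in 10 libraries at folds of 1.81 to 2.37, a mean percentile of 0.871%. Grik5, the other high-affinity subunit, was called in 7 libraries at folds of 1.67 to 2.01, a mean percentile of 0.239%. These were the weakest promoter peaks of the set, and the Grik5 peak also overlapped the promoter of its neighbour Zfp574. Libraries without a Grik3 call were K27M brainstem cultures 59 and 61 and control telencephalon culture 59. Libraries with a Grik5 call were 2 of K27M brainstem, 2 of control brainstem, 2 of K27M telencephalon and 1 of control telencephalon. The delta receptor gene Grid1, which encodes a synapse-organising protein, was called in all libraries at a low fold of 2.16 to 2.79 with a median of 2.50.

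Metabotropic glutamate receptor genes had calls in all libraries for 2 of 7. These were the inhibitory, Gi/o-coupled receptors Grm3, with folds of 2.66 to 4.66 and a median of 3.52, and Grm8, with 2.56 to 4.06 and a median of 3.18. Grm5, the only member that couples to Gq, was called in 12 libraries with folds of 2.71 to 3.35, and was missing from control brainstem culture 59. Grm7, a presynaptic receptor of low glutamate affinity, was called in 12 with folds of 2.64 to 4.00, and was missing from control telencephalon culture 59. Grm2, the close relative of Grm3, was called in 7 libraries. Its folds were 2.30 in K27M brainstem culture 41, 3.18 and 3.66 in control brainstem cultures 59 and 61, 2.55 and 2.41 in K27M telencephalon cultures 51 and 61, and 2.46 and 2.53 in control telencephalon cultures 51 and 61. The 2 highest values were thus in control brainstem, but each group had a library without a call. Grm4 was called in 5 libraries, at 2.28 in K27M brainstem culture 41, at 2.62, 2.37 and 2.55 in K27M telencephalon cultures 41, 51 and 59, and at 2.26 in control telencephalon culture 51. None of the Grm4 calls lay within 500 bp of a start. Grm6, the receptor of retinal ON bipolar cells, was called at 2.27 in K27M brainstem culture 41 and at 2.42 in control telencephalon culture 61.

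GABA-A receptor genes held the strongest promoter of the set. Gabrg1, which encodes a gamma subunit, had a percentile of 97.5% ± 1.78 (SD, n = 13) and was the only member with a peak of p at most 1e-10 in all 13 libraries. Its fold was 5.33, 4.40 and 4.55 in K27M brainstem cultures 41, 59 and 61 and 4.54, 4.84 and 5.43 in control brainstem cultures 51, 59 and 61. In telencephalon it was 4.22, 4.85, 4.16 and 5.15 in K27M cultures 41, 51, 59 and 61 and 4.52, 3.79 and 5.32 in control cultures 51, 59 and 61. Its lowest percentile in any library was 94.3%, and the groups overlapped. Gabrb1, a beta subunit, ranged from 3.33 to 4.61 with a median of 3.85, and Gabra2, an alpha subunit that is abundant in the developing brain, ranged from 2.97 to 4.19 with a median of 3.66. Gabra4 and Gabrb1 are divergent neighbours on chromosome 5 and shared 1 merged peak (chr5:71656920-71658470), which was found in 12 libraries. Gabra4 had no other promoter peak, so its folds of 2.61 to 4.13 cannot be assigned to 1 of these genes. Gabrb1 had a further peak in all 13 libraries at an alternative start, at chr5:71699737-71701479, with a fold of 3.74 ± 0.387. In control brainstem culture 59, K27M telencephalon cultures 51 and 59 and control telencephalon culture 61, the fold given for Gabrb1 was that of the shared peak.

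The other GABA-A subunits were called less completely. Gabrb2, part of the most common adult receptor, was called in 12 libraries with folds of 2.47 to 3.22, and Gabrg3 in 12 with folds of 2.65 to 3.96. Gabrb2 and Gabra4 were missing from control telencephalon culture 59 and Gabrg3 from control brainstem culture 59. Gabrd, the delta subunit of extrasynaptic receptors, was called in 7 libraries. Its folds were 2.76 and 2.60 in K27M brainstem cultures 41 and 61, 2.93 and 2.65 in control brainstem cultures 59 and 61, 2.36 and 2.94 in K27M telencephalon cultures 51 and 61, and 3.27 in control telencephalon culture 61. Gabra5, an alpha subunit of extrasynaptic receptors in the hippocampus, was called in 6 libraries. Its folds were 2.66 and 2.71 in K27M brainstem cultures 41 and 59, 2.97 in control brainstem culture 61, 3.17 and 3.41 in K27M telencephalon cultures 41 and 51 and 2.46 in control telencephalon culture 51. Gabra3, an alpha subunit of early development, was called in 4 libraries, at 2.34 in K27M brainstem culture 41, 3.62 in control brainstem culture 61, and 2.41 and 3.43 in K27M telencephalon cultures 51 and 61. For none of these genes did the calls separate the regions or the genotypes. Of the GABA-B genes, Gabbr1, which binds GABA, was called in all libraries with folds of 2.36 to 3.14 and a median of 2.73. Gabbr2, which carries the signal to the G protein, was called in 6 libraries. Its folds were 3.06 and 2.60 in K27M brainstem cultures 41 and 59, 2.88, 3.00 and 2.39 in K27M telencephalon cultures 41, 51 and 61 and 3.32 in control telencephalon culture 61. Thus 5 of 7 K27M libraries and 1 of 6 control libraries had a Gabbr2 call. Gabbr2 was called in 3 libraries when only starts of protein-coding transcripts were used. With lists reduced to equal numbers of peaks it was called in 0.

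The number of receptor promoters called followed the length of the peak list. Over the 13 libraries, Pearson's r was 0.954 and Spearman's rho 0.941, given as a description, since calls and list length come from the same peak lists, and over all coding genes the values were 0.946 and 0.984. Brainstem libraries had 26.3 ± 4.93 receptor promoters called (SD, n = 6) and telencephalon libraries 26.3 ± 4.82 (n = 7), beside 58.9% ± 3.93 and 58.0% ± 6.43 of all coding genes. K27M libraries had 27.6 ± 4.28 (n = 7) and control libraries 24.8 ± 5.04 (n = 6), beside 59.6% ± 3.22 and 57.0% ± 6.99 of all coding genes. Both differences were smaller than the spread between libraries. When each list was reduced to its 16879 most significant peaks, brainstem libraries had 14.5 ± 0.837 (14 to 16) and telencephalon libraries 16.4 ± 1.40 (15 to 19). At that number, 9834 ± 180 coding genes were called in brainstem and 9738 ± 242 in telencephalon libraries. By genotype the equal lists gave 15.9 ± 1.77 receptor promoters in K27M and 15.2 ± 1.17 in control libraries, and 9774 ± 256 and 9793 ± 171 coding genes, so that the difference of K27M minus control was 0.69 receptor promoters in place of 2.74. With peaks of p at most 1e-10 it was 1.55. The receptor counts overlapped between regions and between genotypes, and no test was made on a count over the chosen genes.

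With equal numbers of peaks, 9 receptor promoters were called in all lists, 12 in none and 14 in some. Of the latter, Grin3a, Grm3, Grm5 and Gabbr1 were called in 12 lists. The 4 called in 5 to 8 lists were Gria3 (2 of 6 brainstem and 3 of 7 telencephalon libraries), Grin1 (1 and 4), Grid1 (4 and 4) and Gabra4 (2 and 5). By two-sided Fisher's exact test over the 1839 genes in that range, 0 of the 4 passed by region, with 0.0% of all (70 at an unadjusted p under 0.05), and 0 by genotype, with 0.0% of all (52 at an unadjusted p under 0.05). Of the others, Grm7 was called in 4 of 7 K27M and 0 of 6 control lists, a split that 4.01% of the coding genes called in 4 such lists had. Gabrg3 was called in 0 of 6 brainstem and 3 of 7 telencephalon lists, a split that 14.0% of the coding genes called in 3 such lists had. Grik3 was called in 1 list of each region, Grm2 in 1 brainstem list, and Grin2d and Gabrb2 each in 1 telencephalon list.

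**Figure D2:**
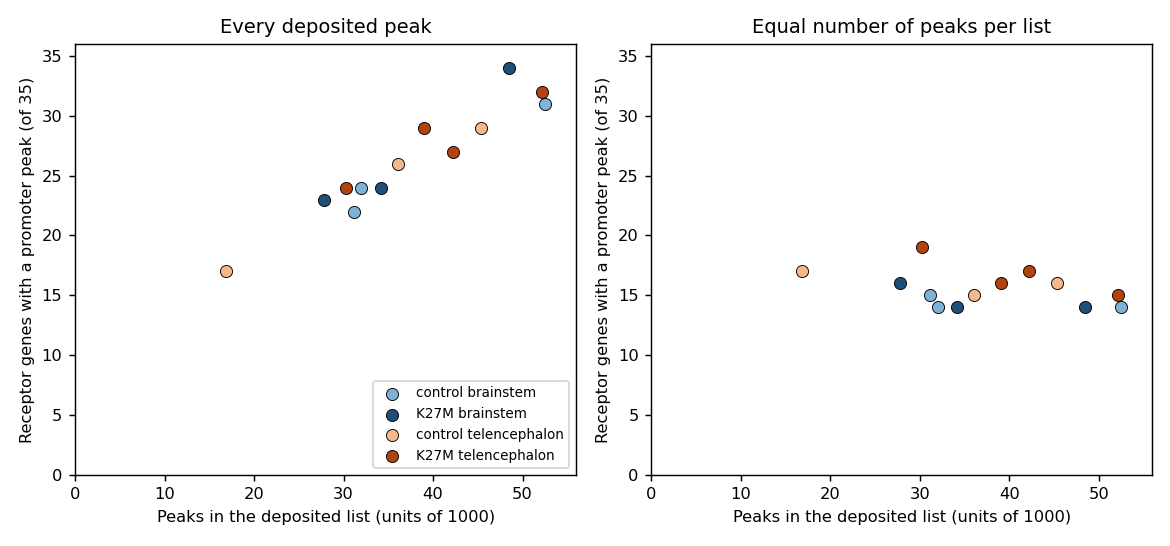
Number of the 35 receptor genes with a promoter peak (vertical axis) against the number of peaks in the deposited list (horizontal axis, in units of 1000), for each library, coloured by group. With every deposited peak (left) the counts run from 17 to 34 along with list length, and with 16879 peaks per list (right) they lie between 14 and 19.

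No receptor promoter passed the test of strength between regions or genotypes. The log2 fold of the 14 promoters called in all libraries, centred on each library's median, was compared with limma over all 11483 genes called in all libraries, with culture as a block. Of the 14 members, 0 passed an adjusted p of 0.05 by region, where 0.0174% of the genes tested passed (2 genes, and 583 at an unadjusted p under 0.05). By genotype 0 members passed, and 0.0% of all genes did (499 at an unadjusted p under 0.05). The differences of brainstem minus telencephalon ran from -0.22 to 0.06 with a median of -0.01, against a median of -0.01 over all genes, and those of K27M minus control from -0.12 to 0.11, with standard errors of 0.06 to 0.09. Gria4 had the largest regional difference. Its fold had a lowest, median and highest value of 3.37, 3.95 and 4.95 in brainstem and of 3.65, 4.42 and 5.10 in telencephalon, and the ranges overlapped. The centred log2 difference was -0.22 ± 0.07 (SE) (limma, adjusted p = 0.783). Grm8 followed, with 3.00, 3.18 and 3.66 in brainstem and 2.56, 3.62 and 4.06 in telencephalon, a log2 difference of -0.14 ± 0.07 (limma, adjusted p = 0.952). Among the genotype differences, Grik4 had -0.12 ± 0.07, Gabrb1 -0.11 ± 0.07 and Grin3a 0.11 ± 0.08, with limma adjusted p = 0.999 for each. The fold of Gabrb1 came in some libraries from the peak it shares with Gabra4.

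**Figure D3:**
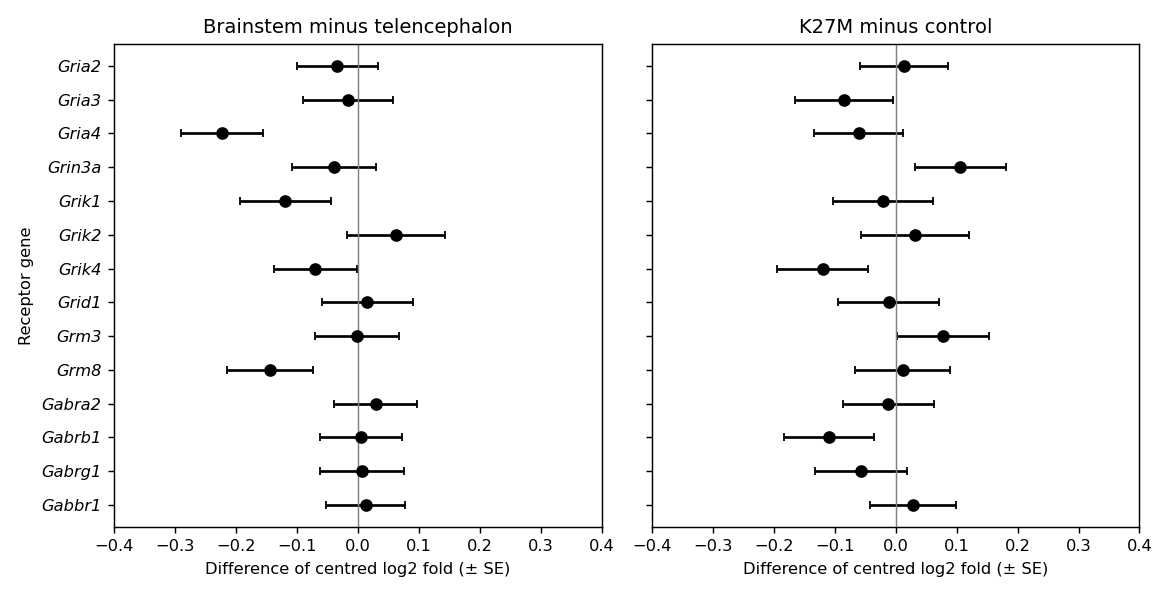
Difference of the centred log2 fold (points, with bars of ± 1 SE from limma) for the 14 receptor promoters called in all 13 libraries, brainstem minus telencephalon on the left and K27M minus control on the right. All points lie between -0.22 and 0.11, and 0 of 14 passed the test in either comparison.

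The genotype effect was also compared between the regions. For Grin3a, K27M minus control was 0.26 ± 0.11 in brainstem and -0.04 ± 0.10 in telencephalon on the log2 scale. The difference between these effects was 0.30 ± 0.14, the largest of the 14 (limma, adjusted p = 1.0). None of the 14 members passed this test, nor did any of all genes (0.0%, with 433 at an unadjusted p under 0.05). For Gabbr1 the corresponding effects were 0.14 ± 0.10 in brainstem and -0.09 ± 0.09 in telencephalon.

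No receptor gene passed the test of promoter detection either. Of 1815 genes called in 5 to 8 libraries, 6 were receptor genes, namely Gabbr2, Gabrd, Gabra5, Grik5, Grm2 and Grm4. By two-sided Fisher's exact test 0 of the 6 passed by region, with 0.0% of all genes tested (39 at an unadjusted p under 0.05), and 0 of the 6 by genotype, with 0.0% of all (22 at an unadjusted p under 0.05). With 13 libraries the smallest p that Fisher's exact test can give here is 0.000583. A single gene at that p would not pass after adjustment over 1815 genes. The absence of calls therefore cannot exclude a difference in detection. Gabbr2 had the smallest genotype p, 0.103 by Fisher's exact test (5 of 7 K27M against 1 of 6 control libraries, adjusted p = 1). Grm4 had a p of 0.266 for both factors by the same exact test (1 of 6 brainstem against 4 of 7 telencephalon libraries). In the wider range of 3 to 10 libraries, 12 receptor genes were tested and 0 passed by region (0.0% of 4389 genes, 58 at an unadjusted p under 0.05) or by genotype (0.0%, 43 at an unadjusted p under 0.05).

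Peaks within the gene bodies were concentrated in a few long genes. Peaks of all libraries that overlapped were joined to merged peaks, of which 355 overlapped the 35 genes or their promoters and 304 lay outside the promoter windows, 273 in introns and 31 in exons. Of those 304, 176 (57.9%) were found in a single library and 13 (4.28%) in all 13. Over all 99746 merged peaks of the series, promoters included, 43.1% were found in 1 library and 13.1% in all. Grid1 had the most body peaks per library (3 to 18, median 12), followed by Grik4 (7 to 17, median 9), Grik3 (5 to 14, median 8) and Grm5 (3 to 10, median 8). No body peak was found in any library for Grin3b, Grm6, Gabra3, Gabra4 or Gabbr1.

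Every library had a body peak in 7 of the 35 genes (20.0%), against 8.88% of all coding genes. The receptor genes are long, with a median of 223.5 kb against 17.4 kb, and the part of length in this share was not tested. Per 100 kb of summed gene length the members had 0.832 body peaks per library and all coding genes 1.26. Kainate receptor genes had 1.34 per 100 kb and Grid1 1.46, whereas the 9 GABA-A genes had 0.262. The density was highest in Grm2, 5.33 per 100 kb in a short gene, and among long genes in Grik3, 3.79. The strongest GABA-A promoter therefore belonged to a gene with almost no body peaks: Gabrg1 had a body peak in 1 of 13 libraries.

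**Figure D4:**
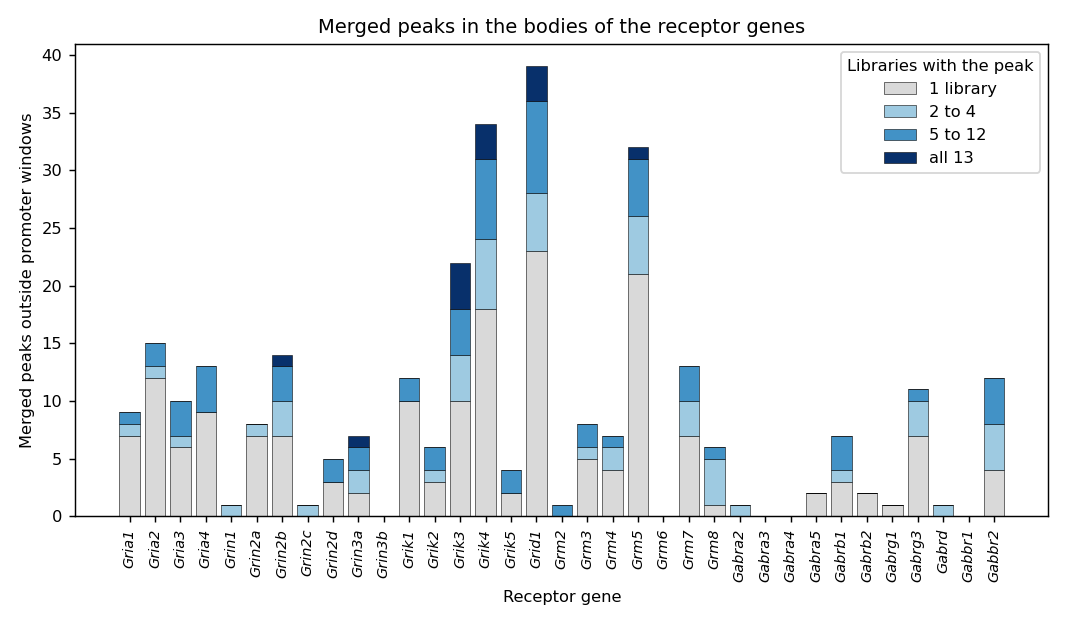
Number of merged peaks outside the promoter windows in each receptor gene (bars), split by the number of libraries with the peak, from 1 library (grey) to all 13 (dark blue). Grid1, Grik4, Grm5 and Grik3 have the tallest bars, and peaks found in a single library make up 176 of the 304.

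The 13 body peaks found in all libraries lay in 6 genes, and the seventh gene with a body peak in every library, Gria3, had different peaks in different libraries. Grik3 held 4, Grid1 and Grik4 3 each, and Grin2b, Grin3a and Grm5 1 each. The strongest was in an intron of Grid1 (chr14:34968822-34970016), 149 kb from the gene start, with a fold of 4.29 ± 0.454 (SD, n = 13) and a mean percentile of 93.8%. In Grid1 the promoter peak had a mean percentile of 19.1%, far below this intronic peak. An intronic peak of Grik4 (chr9:42896803-42898650) had a fold of 4.21 ± 0.545. In Grik3, the strongest intronic peak (chr4:125644495-125645985), 155 kb from the start, had a fold of 4.00 ± 0.624 and a percentile of 87.6%, whereas its promoter lay at 0.871%. The fold of that Grik3 peak was 4.79, 3.88 and 3.39 in K27M brainstem cultures 41, 59 and 61 and 3.77, 3.39 and 4.93 in control brainstem cultures 51, 59 and 61. In telencephalon it was 3.44, 4.92, 3.94 and 3.82 in K27M cultures 41, 51, 59 and 61 and 3.86, 3.19 and 4.72 in control cultures 51, 59 and 61. High and low libraries occurred in each group, and the groups overlapped. Grin2b had an intronic peak 7.87 kb from its start (chr6:136165145-136166147) with a fold of 3.93 ± 0.582, and Grm5 a peak in an exon near its end (chr7:88128969-88130780) with 3.69 ± 0.470. Whether these peaks regulate the genes that contain them was not tested.

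No merged peak of the receptor genes passed the test of strength. Of 29 found in all libraries, 0 passed by region (limma over 13075 merged peaks, where 0.0229%, 3 peaks, passed, with 832 below 0.05 before adjustment). In the genotype comparison 0 passed, with 0.0% of all merged peaks (586 at an unadjusted p under 0.05), and 0 passed in the difference between the genotype effects (0.0% of all, 519 at an unadjusted p under 0.05). The peak with the smallest regional p was in another intron of Grid1 (chr14:34891452-34892557). Its lowest, median and highest folds were 2.26, 2.83 and 3.37 in brainstem and 2.80, 3.46 and 3.70 in telencephalon, and these ranges overlapped. The centred log2 difference was -0.30 ± 0.08 (SE) (limma, adjusted p = 0.378). The promoter peaks of Gria4 and Grm8 came next, with log2 differences of -0.21 (limma, adjusted p = 0.605) and -0.14 (limma, adjusted p = 0.825). By genotype the 3 smallest p-values belonged to introns. These were Grik4 at chr9:42572885-42574230 (log2 difference -0.21), Grid1 at chr14:35073676-35075747 (-0.17) and Grik4 at chr9:42802684-42804054 (-0.15), each with a limma adjusted p of 0.999. For the first of these the folds were 2.40, 2.80 and 3.42 (lowest, median, highest) in K27M and 2.47, 3.08 and 4.06 in control libraries, and they overlapped.

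No merged peak of the receptor genes passed the test of detection. Of the 34 receptor peaks found in 5 to 8 libraries, 0 passed by region and 0 by genotype in two-sided Fisher's exact tests over 11706 merged peaks, of which 0.0% passed by region (276 at an unadjusted p under 0.05) and 0.0% by genotype (147 at an unadjusted p under 0.05). An intronic peak of Grik3 (chr4:125589831-125591252) was called in 0 of 6 brainstem and 5 of 7 telencephalon libraries, with p = 0.0210 by Fisher's exact test and an adjusted p of 1. An intronic peak of Gabrg3 (chr7:57086944-57087873) had the same counts and p in the same exact test. Its folds were 2.65, 3.82 and 3.03 in K27M telencephalon cultures 41, 51 and 61 and 2.73 and 2.98 in control telencephalon cultures 51 and 61. The Grik3 peak was called in these same libraries at 2.54, 2.09, 2.21, 2.28 and 2.27. The telencephalon libraries without either call were both of culture 59, with lists of 30248 (K27M) and 16879 (control) peaks. The brainstem lists held 27768 to 52466 peaks. The part of list length in these calls was not tested. The share of all merged peaks found in 5 libraries that had every call in telencephalon was not counted. The next regional p-values were those of an exonic and an intronic Grik4 peak, each in 4 of 6 brainstem and 1 of 7 telencephalon libraries (p = 0.103 by Fisher's exact test). By genotype, a peak at an alternative start of Gabbr2 (chr4:46858557-46859587) and an intronic peak of Grm5 (chr7:87937514-87938660) were each called in 5 of 7 K27M and 1 of 6 control libraries (p = 0.103 by Fisher's exact test). A Grik3 intronic peak (chr4:125559525-125562847) and the exonic Grik4 peak were each called in 4 of 7 and 1 of 6.

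Gabrg3, a gamma subunit gene of the GABA-A receptor, was singled out after its values were seen, because its body peaks were called in telencephalon libraries alone. It had 0 body peaks in each of the 6 brainstem libraries. In telencephalon it had 5, 8, 1 and 3 in K27M cultures 41, 51, 59 and 61 and 1, 0 and 1 in control cultures 51, 59 and 61. The calls lay at 11 merged peaks, of which 7 were found in 1 library. Body peaks thus occurred in 6 of 7 telencephalon libraries, 4 of K27M and 2 of control cultures. Of the 441 coding genes with a body peak in exactly 6 libraries, Gabrg3 was the 1 gene (0.227%) for which all 6 were telencephalon. In a test added after the data were seen, over the 1699 coding genes with a body peak in 5 to 8 libraries, Gabrg3 had a regional p of 0.00466 by Fisher's exact test and an adjusted p of 1. Of the 4 receptor genes in that test (Gria1, Grin2a, Grik5 and Gabrg3), 0 passed by region, with 0.0% of all (23 at an unadjusted p under 0.05), and 0 by genotype, with 0.0% of all (19 at an unadjusted p under 0.05). When the lists were reduced to equal numbers, 1 Gabrg3 body peak was left, in K27M telencephalon culture 41.

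CpG content was compared with the calls over 32 RefSeq windows of the 25 genes with a sequence. The median ratio of observed to expected CpGs was 0.538 in these windows, from 0.0 to 1.20, and 0.588 in 20150 windows of coding genes. The 9 receptor windows with a peak over them in all libraries had a median of 0.721, and the 7 with none 0.172, against 0.817 and 0.201 for the coding windows. Over windows, Spearman's rho between the CpG ratio and the number of libraries was 0.331 in the receptor genes (n = 32) and 0.708 in the coding genes (n = 20150), as a description, since some windows overlap. Gabrg1, with the strongest peak and a ratio of 0.276, and Gabbr2, with a ratio of 0.961 and 0 libraries over its window, lay at opposite ends. Grik3 had the highest GC content, 82.0%, and a peak over its window in 5 libraries.

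**Figure D5:**
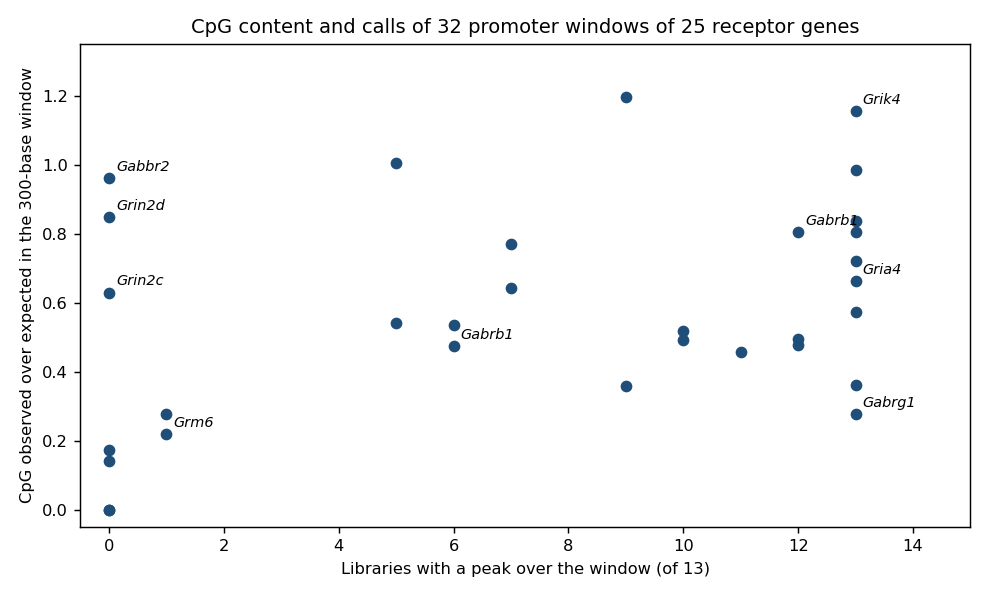
Ratio of observed to expected CpG dinucleotides in the 300-base RefSeq windows (vertical axis) against the number of libraries with a peak over the window (horizontal axis), with 1 point per window of the 25 receptor genes. Windows with a peak in all 13 libraries span 0.276 (Gabrg1) to 1.16 (Grik4), and those with none span 0.0 to 0.961 (Gabbr2).

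Short motifs were counted in the same windows on both strands. CAGCTG, an E-box core, was in 0 of 32 receptor windows and in 15.7% of the coding windows. ACAAAG, a core of Sox sites, was in 3 (9.38%), those of Gabbr1, Gabra3 and Grm6, and in 16.7% of the coding windows. The cyclic AMP response element TGACGTCA was in 0 and in 2.31%. CAGCACC, a piece of the RE1 element, was in 1, that of Grm2, and in 7.19%. None of these motifs contains another, and the counts describe the windows and show neither binding nor its absence.

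Genes that handle the transmitters or the receptors were counted from 2 lists. Of 15 transporters and enzymes of glutamate and GABA, 6 promoters were called in all libraries (40.0%), 8 in some and 1, Slc6a13, in none. Of 30 auxiliary and scaffold proteins of the receptors, 19 were called in all libraries (63.3%), 10 in some and 1, Grip2, in none. Over all protein-coding genes the shares were 42.0% in all libraries, 27.4% in some and 30.6% in none. By limma 0 of 6 and 0 of 19 of those tested passed by region or by genotype, with smallest adjusted p-values of 0.952 and 0.958 by region. Of all genes tested by limma, 0.0174% passed by region and 0.0% by genotype. By Fisher's exact test 0 of 1 and 0 of 3 passed in either comparison, with 0.0% of all genes tested.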

How the data were processed

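Each of the 13 libraries had 1 deposited broad peak list. The authors aligned the reads to mm10 with BWA 0.7.17-r1188 after trimming with Trim Galore 0.6.7, removed reads in blacklisted regions and called peaks on 1 library at a time with MACS2 2.2.7.1. Per the format, the deposited values were a fold enrichment over local background, the −log10 of the p-value and q-value, and a score that was not used beyond a check of the format. The study's supplement states a MACS2 broad cutoff for its ChIP-seq peaks, called with the same version. Whether it also held for the ATAC-seq lists is not given in the sources used here, and −log10 q was at least 1.0 in all deposited peaks. No read counts were used, so depth was unknown and no counting interval was given. The values were not normalised between libraries.

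Samples were grouped by the tissue, genotype and culture labels. Promoters were windows of 2 kb before and 1 kb after each GENCODE M21 start, and neighbouring genes could share a peak. The strongest overlapping peak gave the fold. Peaks overlapping by at least 1 bp were merged. Log2 fold of features with peaks in all 13 libraries, centred on each library's median, was tested with limma 3.58.1 in R 4.3.3, with the 4 groups and the culture number as a block, and calls in 5 to 8 libraries with two-sided Fisher's exact tests, both with Benjamini-Hochberg adjustment over all features and a threshold of 0.05. The limma fit was checked on simulated regional changes larger than any receptor difference here and without a culture effect. The exact test was compared with another implementation on random calls. Whether changes of the size seen at the receptor genes could be detected was not examined. Pairing by culture number was checked from deviations from the group means: 7 of 16 same-numbered pairs of libraries had a correlation above 0.1 (median 0.0867). Of 47 pairs with different culture numbers, 6 had a correlation above 0.1 (median -0.0175). The number is the label of the culture, and the block was kept as in the study's use of matched cultures. Pairs of libraries within a group shared 33.3% to 58.9% of their merged peaks, and 0 peaks were identical. Since nothing states how the cultures of 1 group relate, p-values measure the spread between these libraries.

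The members and lists were chosen with earlier results of these data known. All members were named with their calls, and peaks were named by the smallest p in each comparison where none passed. Alternatives were peaks with p at most 1e-10, lists of equal number, other promoter definitions, no centring, percentiles, other detection ranges, a 25% overlap, fits with or without the block, and leaving out each library. A test of any body peak per gene was added after the data were seen.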

Additional observations from a re-analysis of the deposited data

Results flagged for a closer look

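The 4 libraries of K27M telencephalon were searched for a library that stands apart in 28 values (the number of receptor promoters called, the folds of the 14 promoters and those of the 13 body peaks found in all libraries). For the intronic Grik4 peak at chr9:42896803-42898650, culture 51 had a fold of 5.38, whereas the other 3 libraries of the group lay between 3.81 and 4.00. Chance places about 1 in 20 such groups past the limit, and 1 of 28 was.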

How the results depend on the processing

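The receptor calls depended on which peaks were counted. With peaks of p at most 1e-10, 1 gene (Gabrg1) was called in all libraries and 19 in none, against 14 and 0 with every peak. With lists of equal number the counts were 9 and 12. With windows of 500 bp either side of a start, 12 were called in all and 2 (Grin2d and Grm4) in none. With starts of protein-coding transcripts both counts were unchanged. Leaving out each library in turn gave 14 to 17 genes called in all and 0 in none, a difference of brainstem minus telencephalon of -1.5 to 1.0 receptor promoters per library and one of K27M minus control of 1.17 to 3.97. Without control telencephalon culture 59, 17 genes were called in all the others.

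No receptor gene or merged peak of these genes was called by limma under any alternative, with a smallest adjusted p of 0.558 for promoters by region, 0.796 by genotype, 0.184 for merged peaks by region and 0.783 by genotype; for merged peaks the fit to peaks of p at most 1e-10 was left out of these values, since its peaks have other borders. Without the replicate block the promoter fold by region had 4 calls among all genes instead of 2, and it had 0 without centring and 0 with peaks of p at most 1e-10. Leaving out a library gave 2 to 6, and 0 to 1 by genotype. The merged peak fold by region had 3 calls, 0 without centring, 0 with percentiles, 0 with peaks of p at most 1e-10, 2 without the block and 0 to 4 without 1 library. By genotype it had 0 to 2. Without 1 of the 2 libraries of culture 41 the other carries no information under the block. Detection had 0 calls in every alternative, the replicate block and the added test of any body peak per gene included. With so few libraries a single feature could hardly pass these exact tests after adjustment, so the 0 calls say little about stability. The 12 fold differences with the smallest p, 0 of which passed, kept their sign in 192 of 192 alternative fits. They were picked by p in these same data, and the fits share most libraries. The promoters of Gria4 and Grm8 were entered both as genes and as merged peaks. The kept signs are therefore not independent support. The sizes of the differences moved by over 1.5 times in 17 of 180 fits on the log2 scale. Grin3a by genotype went from 0.11 to 0.02 without K27M telencephalon culture 51, and the Grik4 intronic peak at 42802684 from -0.15 to -0.07 without control telencephalon culture 61. Without centring, Grik1 by region went from -0.12 to -0.04, Grm8 from -0.14 to -0.06 and Gria4 from -0.22 to -0.14, and Grm8 was -0.08 when 1 of the 2 libraries of culture 41 was left out. The median regional difference over all genes was 0.07 without centring and -0.01 with it. The cause of these changes was not tested. The culture block changed no call of a receptor gene.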
